A study of Homo sapiens with 4 samples.

Results

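The genes described here carry out and restrain programmed cell death: caspases, death receptors with their ligand and adaptors, the apoptosome, proteins released from mitochondria, inhibitor of apoptosis proteins (IAPs), necroptosis effectors and nuclear substrates. The BCL2 family was left out. The 33 members were chosen by gene symbol from what each is known to do, and all 33 were found among the 23228 symbols in the count files. RNA was sequenced from 4 samples labelled as OCSCs (ovarian cancer stem cells) of the SKOV3 line, 2 treated with vehicle and 2 with LY500307, an agonist of estrogen receptor beta (ERβ), at 5 µM for 24 h. The cells of both groups had been sorted as ALDH+ with the ALDEFLUOR kit, which detects aldehyde dehydrogenase activity. Both groups were grown as spheroids without serum but with EGF, bFGF, hydrocortisone and insulin. Nothing in the sources used here says that the samples came from separate cultures, so the p-values measure the spread between these samples, which may be technical.

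Apoptosis can start at the cell surface or at the mitochondrion. Ligands of the TNF family bind death receptors, whose adaptors FADD and TRADD recruit initiator caspases, and CFLAR (c-FLIP) competes with CASP8 at that complex. At the mitochondrion, released cytochrome c joins APAF1 to form the apoptosome, which activates CASP9. Executioner caspases then cleave substrates such as PARP1, and IAPs hold caspases back or steer receptor signalling towards NF-kB. Where CASP8 is blocked, RIPK1 and RIPK3 can activate MLKL, which ruptures the membrane in necroptosis. Caspases are largely controlled by cleavage of existing protein, so the abundance of their mRNA is not a measure of their activity.

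Gene totals ranged from 28841701 to 34943882 reads per sample. Gene counts of replicates gave a chi-square per degree of freedom of 5.16 between vehicle samples and 42.5 between LY500307 samples, and the LY500307 samples differed more from each other. The libraries did not carry most epithelial markers of the labelled line. KRT7, KRT19, PAX8, WT1 and MUC16 had 6 reads or fewer in every sample, and KRT8 had 9 to 33 reads. EPCAM lay between 194 and 240 CPM (the usual counts-per-million scale, on TMM-scaled library sizes), KRT18 between 23.5 and 31.8 CPM and ERBB2 between 48.7 and 59.4 CPM. SKOV3 is known for an amplified ERBB2 gene. Summed over 7 leukocyte markers, the level was 0.868 to 1.55 CPM with vehicle and 0.959 to 1.30 CPM with LY500307. All 6 fibroblast markers had at least 10 reads in every sample, summing to 906 to 915 CPM with vehicle and 994 to 1170 CPM with LY500307, and of the endothelial markers 1 of 4, KDR, did. Of the fibroblast markers, COL1A1, COL1A2 and COL3A1 held most of the sum and were higher in both LY500307 samples. DCN and LUM were lower in both, and in PDGFRB the groups overlapped. The part of these cell type markers in the results was not tested. ESR1 had 0 reads in every sample and ESR2 had 7 to 12.

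No caspase, IAP, death receptor or adaptor among the 33 members met the criteria for a changed gene after LY500307. In bulk samples, fewer cells of a type and less RNA per cell cannot be told apart. The criteria, taken from the study's methods, were an unadjusted p below 0.05 together with a log2 fold change of more than 0.5 in either direction, here with edgeR's quasi-likelihood test. Of the 33 members, 31 had enough reads to be tested, and 0 of these met the criteria, where 4.62% of all 14473 genes tested did. An unadjusted p below 0.05 was found for 2 members, 6.45% of those tested against 11.6% of all genes tested. These were CFLAR, which was lower in both LY500307 samples, and TNFRSF1A, which was higher in both. With Benjamini-Hochberg adjustment over all genes tested, edgeR left 0 members and 0% of all genes under 0.05, and 0.422 was the lowest value any member reached. Under DESeq2 16 genes, none of them a member, fell under 0.05. DESeq2 also gave 0 members that met the criteria, with 2 at an unadjusted p below 0.05, CFLAR and FADD. These were 6.06% of the 33 members in that fit, against 7.69% of its 18407 genes.

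Members were found in both directions, 15 with a positive and 16 with a negative log2 fold change. Their median log2 fold change was -0.01, beside 0 for all genes tested. Estimates ran from -0.64 for MLKL, a thinly counted member, to 0.43 for ENDOG. For 18 of the 31 members (58.1%), the 95% interval of the log2 fold change lay within 0.5 of zero on both sides, beside 43.1% of all genes tested. The members tested were also more abundant, with a median of 55.7 CPM against 27.9 CPM over all genes tested, and higher counts narrow such intervals. For the other 13 members the interval reached past 0.5. The intervals of MLKL, TNFRSF25, CASP10, TRADD and TNFSF10 extended more than 0.5 to either side of the estimate. The samples of the groups did not overlap in 14 members (45.2%), 6 higher and 8 lower with LY500307, beside 48.6% of all genes tested. The smallest two-sided p of an exact permutation test is 0.333 where 2 samples are set against 2.

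**Figure D1:**
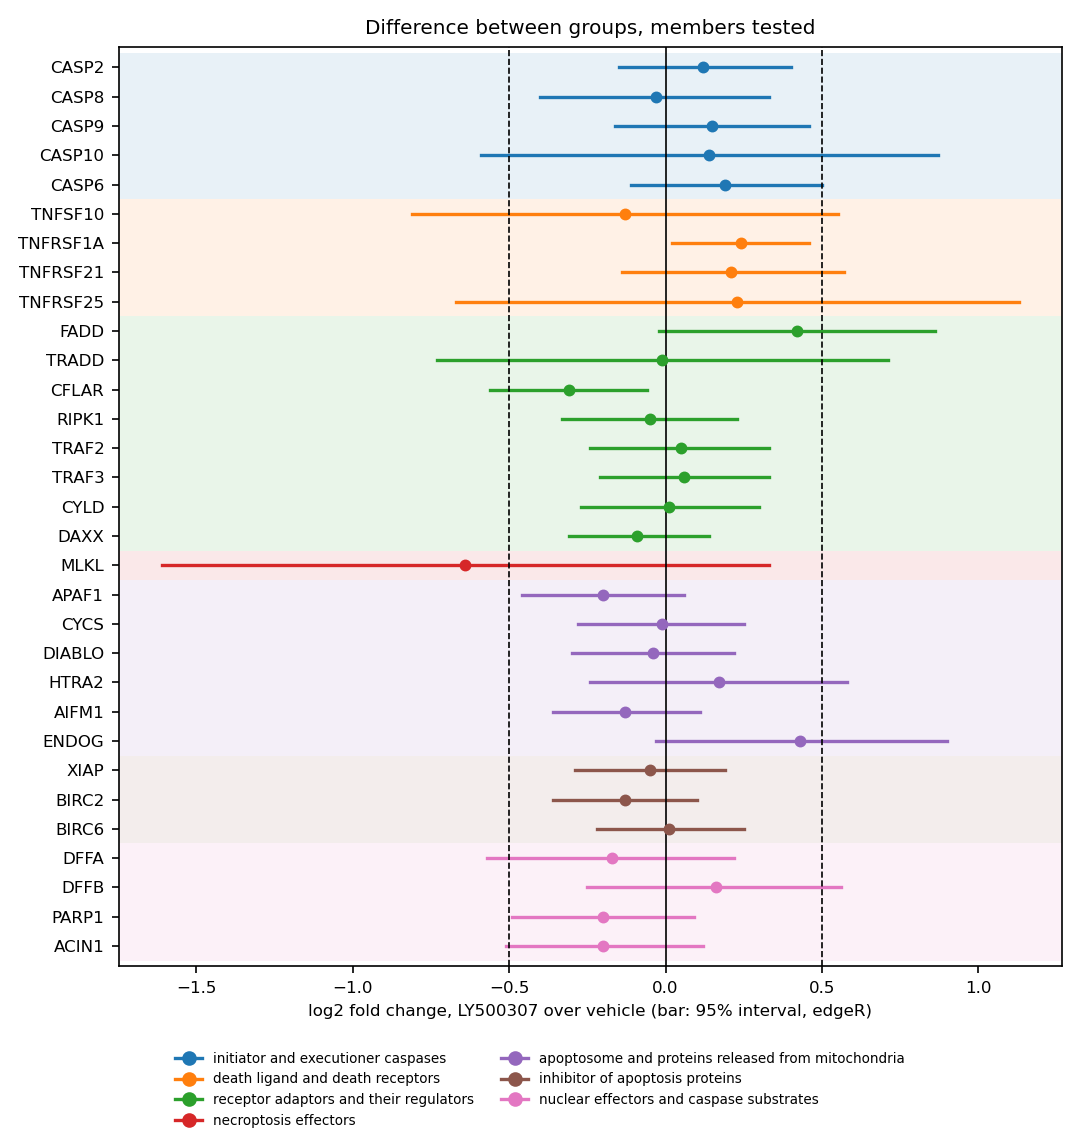
Log2 fold change (LY500307 over vehicle) of the 31 members tested, in edgeR's fit, on the horizontal axis. Points are estimates, bars are 95% intervals, colours are roles, and dashed lines mark 0.5 in either direction. The intervals of 29 members include 0, and those of CFLAR (-0.56 to -0.06) and TNFRSF1A (0.02 to 0.46) do not.

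Read levels spanned more than the whole range of the fold changes. Of the 33 members, 25 were at 10 CPM or more in every sample, 6 reached 1 CPM in at least 1 sample but stayed under 10 CPM, and RIPK3 and BIRC3 stayed under 1 CPM throughout. Per length (CPM divided by the length in kb of the Ensembl canonical transcript, on GRCh37), the most abundant members were PARP1, ACIN1 and AIFM1. Their means over the 4 samples were 165, 82.2 and 71.4 CPM per kb. TNFRSF1A (49.0), DIABLO (45.8) and DAXX (42.7) followed on the same scale, and the ranges of these last 3 over the samples overlapped. The lowest were TNFRSF25, MLKL, CASP10, BIRC3 and RIPK3, at 0.916, 0.392, 0.315, 0.031 and 0.0127 CPM per kb. These per-length values depend on the transcript chosen, which for CFLAR is 14612 bases long.

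**Figure D2:**
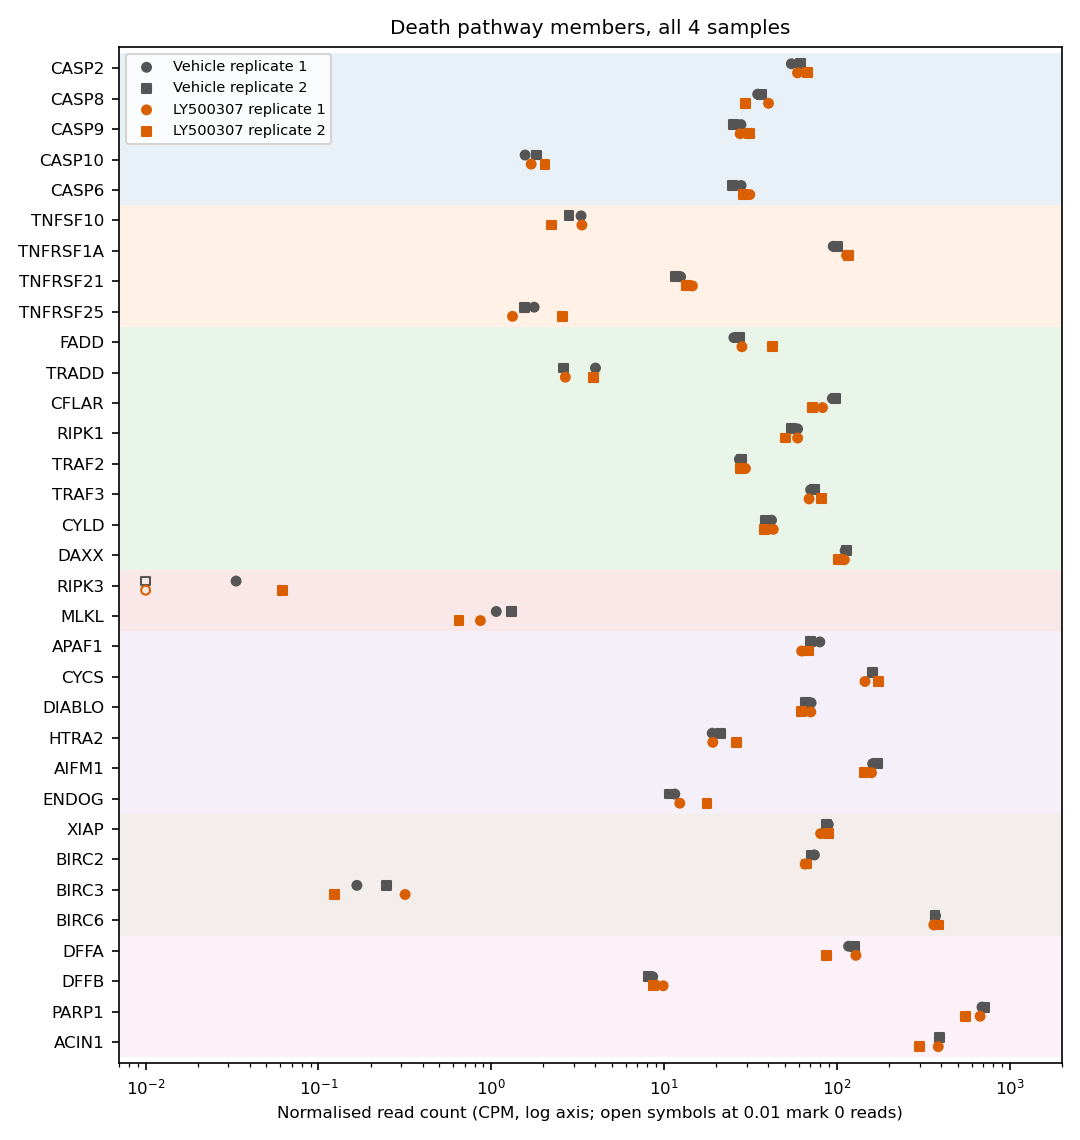
Normalised read count (CPM, log axis) of each member in each of the 4 samples, with members grouped by role in shaded bands. Grey is vehicle, orange is LY500307, circles are replicate 1 and squares replicate 2. RIPK3 and BIRC3 lie below 1 CPM in all samples, while the LY500307 replicates of FADD, ENDOG, DFFA and ACIN1 stand apart from each other.

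The death ligand TNFSF10 (TRAIL) was scarce, and the receptor TNFRSF1A was the most abundant receptor among the members. TNFRSF1A, which binds TNF, is encoded on the minus strand of chromosome 12 (GRCh37, 6437923 to 6451280). It was at 95 and 100 CPM in the vehicle samples and at 114 and 117 CPM in the LY500307 samples. Both LY500307 samples were above both vehicle samples by more than either pair's gap, with means of 97.7 ± 3.81 CPM and 115 ± 2.40 CPM (SD, n = 2). The log2 fold change was 0.24 (standard error 0.10, 95% interval 0.02 to 0.46, unadjusted p = 0.0392, adjusted p = 0.428, edgeR). DESeq2 gave the same log2 fold change with an adjusted p = 0.493 and an unadjusted p above 0.05. In edgeR with the correction for GC content the estimate was 0.18, also with an unadjusted p above 0.05.

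TNFRSF21 (death receptor 6) was at 12.4 and 11.6 CPM with vehicle and 14.6 and 13.4 CPM with LY500307. Its groups did not overlap either, as in 48.6% of all genes tested, and its log2 fold change was 0.21 (95% interval -0.14 to 0.57). TNFRSF25 (death receptor 3) had 53 and 44 reads with vehicle and 46 and 83 reads with LY500307. Scaled to the libraries, the LY500307 samples lay on both sides of the vehicle samples, at 1.33 and 2.57 CPM against 1.77 and 1.55 CPM. Its exons overlap those of ESPN on the opposite strand, which the counting may not have told apart. The same holds for CASP9, APAF1, DIABLO, HTRA2, DFFA, DFFB and ACIN1, 8 members in all. TNFSF10 had 99 and 80 reads with vehicle and 116 and 72 with LY500307, and its groups overlapped. Per length, TNFRSF1A was 12.6 to 14.5 times as abundant as TNFRSF21 in each sample.

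Among the adaptors, CFLAR and DAXX were lower and FADD higher in both LY500307 samples, and the groups overlapped in the other 5. The groups thus did not overlap in 37.5% of the 8 adaptors and regulators, beside 48.6% of all genes tested. CFLAR, the caspase-like protein without protease activity that restrains CASP8, had 2813 and 2773 reads with vehicle and 2857 and 2337 with LY500307. Scaled to the libraries, these were 93.9 and 97.6 CPM against 82.3 and 72.3 CPM, so neither LY500307 sample reached the lower vehicle sample. The means were 95.7 ± 2.62 CPM and 77.3 ± 7.08 CPM (SD, n = 2). The log2 fold change was -0.31 (standard error 0.11, 95% interval -0.56 to -0.06, unadjusted p = 0.0217, adjusted p = 0.422, edgeR). It kept its direction in every alternative run, from -0.40 to -0.22. Its unadjusted p was above 0.05 when transcript length was corrected for, when GC content was corrected for along with the replicate block, without vehicle replicate 1 (log2 fold change -0.34) and without vehicle replicate 2 (-0.28). TNFRSF1A likewise had an unadjusted p above 0.05 without vehicle replicate 1 (log2 fold change 0.20) or replicate 2 (0.28).

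FADD, the adaptor that brings CASP8 and CASP10 to death receptors, was at 25.3 and 27.3 CPM with vehicle and 28.2 and 42.1 CPM with LY500307. Nearly all of the difference came from LY500307 replicate 2, since replicate 1 lay 0.10 on the log2 scale above the vehicle mean and replicate 2 lay 0.68 above it. The log2 fold change over all samples was 0.42 (95% interval -0.02 to 0.86, adjusted p = 0.431 with edgeR and adjusted p = 0.419 with DESeq2). Leaving out LY500307 replicate 1 gave 0.68, and leaving out replicate 2 gave 0.10. A block for the replicate number put it at 0.39 in edgeR, with an unadjusted p below 0.05.

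RIPK1, the kinase at the fork between survival, apoptosis and necroptosis, was at 59.1 and 54.4 CPM with vehicle and 59.1 and 50.5 CPM with LY500307. TRAF2 and TRAF3, ubiquitin ligase adaptors of TNF receptors, had log2 fold changes of 0.05 and 0.06, and CYLD, a deubiquitinase that trims the chains at these complexes, had 0.01. DAXX, a protein that binds FAS and histones, had -0.09. The intervals of RIPK1, TRAF2, TRAF3, CYLD and DAXX lay within 0.5 of zero. TRADD, the adaptor of TNFRSF1A, had 120 and 74 reads with vehicle and 93 and 126 with LY500307, and its interval ran from -0.73 to 0.71.

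Letters of motifs linked to the treatment and to NF-kB were sought in the 250 bases before the RefSeq start of each member, on both strands. The estrogen response element was searched as GGTCA and TGACC with any 3 bases between them, and its core as GGTCA alone. The AP-1 site TGANTCA and the GC box GGGCGG bind factors through which estrogen receptors can also act, and the NF-kB consensus was searched by its usual degenerate form. Of the 28 members with a promoter in the table, 0 held the full element, where 0.04% of all 27305 promoters did, and 7 (25.0%) held the core, against 33.1%. The AP-1 site was found in 0 members against 6.6% of all promoters, the GC box in 18 (64.3%) against 42.2%, and the NF-kB consensus in 6 (21.4%) against 9.6%. The members' promoters held a median of 23.5 CpG dinucleotides, against 10 over all promoters, and the part of CpG content in these shares was not tested. A match of letters is a description and says nothing of binding. The sequences are those of the RefSeq promoter table on GRCh38.p14, placed on GRCh37 by exact match. The promoters of CFLAR and TNFRSF1A are shown since these members had the smallest p, on GRCh37 at chr2:201983189-201983438 on the plus strand and chr12:6451243-6451492 on the minus strand, with motif letters in capitals.
CFLAR: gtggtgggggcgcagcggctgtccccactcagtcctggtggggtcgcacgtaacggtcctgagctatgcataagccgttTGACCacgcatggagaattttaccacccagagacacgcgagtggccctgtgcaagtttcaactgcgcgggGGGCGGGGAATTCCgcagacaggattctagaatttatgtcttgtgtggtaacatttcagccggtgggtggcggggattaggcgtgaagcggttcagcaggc
TNFRSF1A: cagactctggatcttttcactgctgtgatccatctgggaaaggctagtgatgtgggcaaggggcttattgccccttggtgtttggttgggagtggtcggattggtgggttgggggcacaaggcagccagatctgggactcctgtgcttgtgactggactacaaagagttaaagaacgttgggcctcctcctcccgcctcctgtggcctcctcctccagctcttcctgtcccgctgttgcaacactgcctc

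In the CFLAR stretch, the capitals mark the core of the element in reverse (TGACC) and a GC box that overlaps an NF-kB match. TNFRSF1A held none of the motifs searched. CFLAR has 4 starts in the table, and the most upstream of these was used. In the GENCODE annotation the gene begins further upstream, at 201980877, so the stretch lies inside that gene span.

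The caspase mRNAs differed little between groups. CASP2, an initiator activated on the PIDDosome, was at 54.4 and 61.4 CPM with vehicle and 59.0 and 67.1 CPM with LY500307. CASP9, the apoptosome's initiator, was at 27.8 and 25.2 CPM with vehicle and 27.5 and 31.2 CPM with LY500307, and in both genes the groups overlapped. CASP6, an executioner, was at 27.8 and 24.7 CPM with vehicle and at 31.3 and 28.8 CPM with LY500307. It was the only caspase of the 5 (20%) whose groups did not overlap, beside 48.6% of all genes tested. Its log2 fold change was 0.19 (95% interval -0.11 to 0.50, adjusted p = 0.541, edgeR).

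CASP8, the initiator of the death receptor route, was at 34.7 and 36.7 CPM with vehicle. The LY500307 samples lay on either side of these, at 40.1 and 29.6 CPM, and the log2 fold change was -0.03 (95% interval -0.40 to 0.33). Leaving out LY500307 replicate 2 moved it to 0.17, and leaving out replicate 1 moved it to -0.27. CASP10, its close relative, had 47 and 52 reads with vehicle and 59 and 66 with LY500307, too few for a narrow interval (-0.59 to 0.87).

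CFLAR, CASP10 and CASP8 lie next to each other on the plus strand of chromosome 2 of GRCh37, from 201980877 to 202041410, from 202047595 to 202094151 and from 202098166 to 202226559. In spite of this shared neighbourhood, CASP8 was 30.9 to 50.3 times as abundant per length as CASP10 across the samples.

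Necroptosis effectors were almost absent from these libraries. RIPK3, the kinase that phosphorylates MLKL, had 1 and 0 reads with vehicle and 0 and 2 reads with LY500307, each at or below the floor of 3 reads, which is 0.106 CPM in the shallowest library. No fold change is given for it. MLKL, the pore-forming effector, had 32 and 37 reads with vehicle and 30 and 21 reads with LY500307. Scaled to the libraries, these were 1.07 and 1.30 CPM against 0.864 and 0.650 CPM, with both LY500307 samples lower. The log2 fold change of -0.64 had an interval from -1.61 to 0.33 (adjusted p = 0.529, edgeR). Counts as low as these left MLKL the least precisely measured of the members tested.

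The apoptosome and the proteins that mitochondria release were well covered, and none reached an unadjusted p of 0.05. APAF1, the scaffold of the apoptosome, was at 79.5 and 70.3 CPM with vehicle and 62.4 and 68.3 CPM with LY500307, a log2 fold change of -0.20 (95% interval -0.46 to 0.06). CYCS (cytochrome c) was at 161 and 160 CPM with vehicle and 145 and 173 CPM with LY500307, so the groups overlapped. CYCS has many processed pseudogenes, and reads shared with them make its count uncertain. DIABLO, which displaces IAPs from caspases, had a log2 fold change of -0.04 (95% interval -0.30 to 0.22). AIFM1, a flavoprotein that can move to the nucleus, was at 161 and 171 CPM with vehicle and 158 and 145 CPM with LY500307.

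ENDOG, a mitochondrial nuclease that cuts DNA without caspases, showed the highest estimate of all members. It was at 11.5 and 10.7 CPM with vehicle and 12.3 and 17.7 CPM with LY500307. As for FADD, replicate 2 stood well above the other 3 samples. Over all samples the log2 fold change was 0.43 (95% interval -0.03 to 0.90, adjusted p = 0.432, edgeR), falling to 0.15 without LY500307 replicate 2 and reaching 0.67 without LY500307 replicate 1. With the GC correction it was 0.24. ENDOG has the most GC-rich transcript of the members, at 67.9%. HTRA2, a protease that also cleaves IAPs, was at 19.0 and 21.3 CPM with vehicle and 19.1 and 26.1 CPM with LY500307.

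Of the IAPs, XIAP, BIRC2 and BIRC6 had log2 fold changes between -0.13 and 0.01, and BIRC3 was barely counted. XIAP, the direct caspase inhibitor, was at 88.9 and 86.5 CPM with vehicle and 80.3 and 89.2 CPM with LY500307. BIRC6, a giant ubiquitin ligase, was at 371 and 368 CPM with vehicle and 363 and 384 CPM with LY500307, a log2 fold change of 0.01 (95% interval -0.22 to 0.25). BIRC2 (cIAP1) was at 73.9 and 70.9 CPM with vehicle and 65.4 and 66.8 CPM with LY500307, lower in both LY500307 samples by a log2 fold change of -0.13 (95% interval -0.36 to 0.10). With the GC correction the estimate for BIRC2 was 0.01. The intervals of XIAP, BIRC2 and BIRC6 all lay within 0.5 of zero.

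BIRC3 (cIAP2), the close relative of BIRC2, had 5 and 7 reads with vehicle and 11 and 4 reads with LY500307, and did not pass the filter. BIRC3 and BIRC2 are neighbours on the plus strand of chromosome 11 of GRCh37, from 102188215 to 102210134 and from 102217942 to 102249401. Per length, BIRC2 was 377 to 986 times as abundant as BIRC3 in each sample. Their promoters are shown because the pair differs so widely in level, at chr11:102217695-102217944 for BIRC2 and chr11:102187965-102188214 for BIRC3, both GRCh37 and plus strand, with motif letters in capitals.
BIRC2: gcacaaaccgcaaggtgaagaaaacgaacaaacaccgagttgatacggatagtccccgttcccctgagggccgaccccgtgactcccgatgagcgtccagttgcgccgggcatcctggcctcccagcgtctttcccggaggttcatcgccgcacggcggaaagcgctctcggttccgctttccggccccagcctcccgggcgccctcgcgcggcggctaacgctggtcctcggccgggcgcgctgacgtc
BIRC3: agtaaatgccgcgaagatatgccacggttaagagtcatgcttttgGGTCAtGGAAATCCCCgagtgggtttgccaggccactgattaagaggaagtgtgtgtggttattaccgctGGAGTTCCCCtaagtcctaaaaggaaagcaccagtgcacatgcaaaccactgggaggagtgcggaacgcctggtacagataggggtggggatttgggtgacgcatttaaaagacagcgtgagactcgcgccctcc

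The BIRC3 stretch held the core GGTCA and 2 matches to the NF-kB consensus, GGAAATCCCC and GGAGTTCCCC, while the BIRC2 stretch held none of the motifs searched.

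The substrates PARP1 and ACIN1 were the most abundant members per length, and LY500307 replicate 2 was the lowest sample for PARP1, ACIN1 and DFFA. PARP1, a DNA repair enzyme cleaved by executioner caspases, was at 689 and 717 CPM with vehicle and 672 and 552 CPM with LY500307. ACIN1, a protein of chromatin condensation and splicing, was at 390 and 392 CPM with vehicle and 385 and 299 CPM with LY500307. In both genes the LY500307 samples were below the vehicle samples, replicate 1 by little and replicate 2 by more. The log2 fold change was -0.20 for each, with intervals of -0.49 to 0.09 for PARP1 and -0.51 to 0.12 for ACIN1. Without LY500307 replicate 2 these estimates were -0.06 and -0.02.

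DFFA, the inhibitor of the nuclease DFFB, was at 117 and 127 CPM with vehicle and at 128 and 87.2 CPM with LY500307, so only replicate 2 was low. DFFB itself (CAD, which cuts DNA between nucleosomes) was at 8.57 and 8.06 CPM with vehicle and 9.85 and 8.66 CPM with LY500307. Its groups did not overlap, as in 48.6% of all genes tested, and its log2 fold change was 0.16 (95% interval -0.25 to 0.56).

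Replicate differences within the LY500307 group were as large as the group differences for most members. The gap between the LY500307 samples exceeded the fitted difference between groups in 23 of 31 members (74.2%), beside 58.6% of all genes tested. The median size of that gap was 0.19 on the log2 scale, against 0.10 between the vehicle samples and 0.14 for the fold change. Over all genes tested, these medians were 0.21, 0.11 and 0.18. Gaps above 0.4 between the LY500307 samples were found for 8 members, and between the vehicle samples for 1. Replicate 2 was higher by 0.90 for TNFRSF25, 0.58 for FADD, 0.52 for ENDOG and TRADD and 0.45 for HTRA2. It was lower by log2 values of -0.56 for DFFA and TNFSF10 and -0.44 for CASP8. The LY500307 samples lay on opposite sides of the vehicle mean in 13 members. For this count and that of gaps above 0.4, no share over all genes was computed. Across the 31 members, the gap (replicate 2 over replicate 1) had a Spearman correlation of 0.39 with the GC content of the transcript, and of 0.22 across all genes tested. These points share the same pair of libraries. For the log2 fold change between groups, the correlation with GC content was 0.47 across the members and 0.33 across all genes tested. Reads that the counting assigned to no feature were 25.5% in LY500307 replicate 2 and 28.4 to 30.8% in the other samples. These are shares of the gene, no-feature and ambiguous reads together. Estimates with a GC correction are given for some members, but the part of GC content or of this share in the results was not tested.

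**Figure D3:**
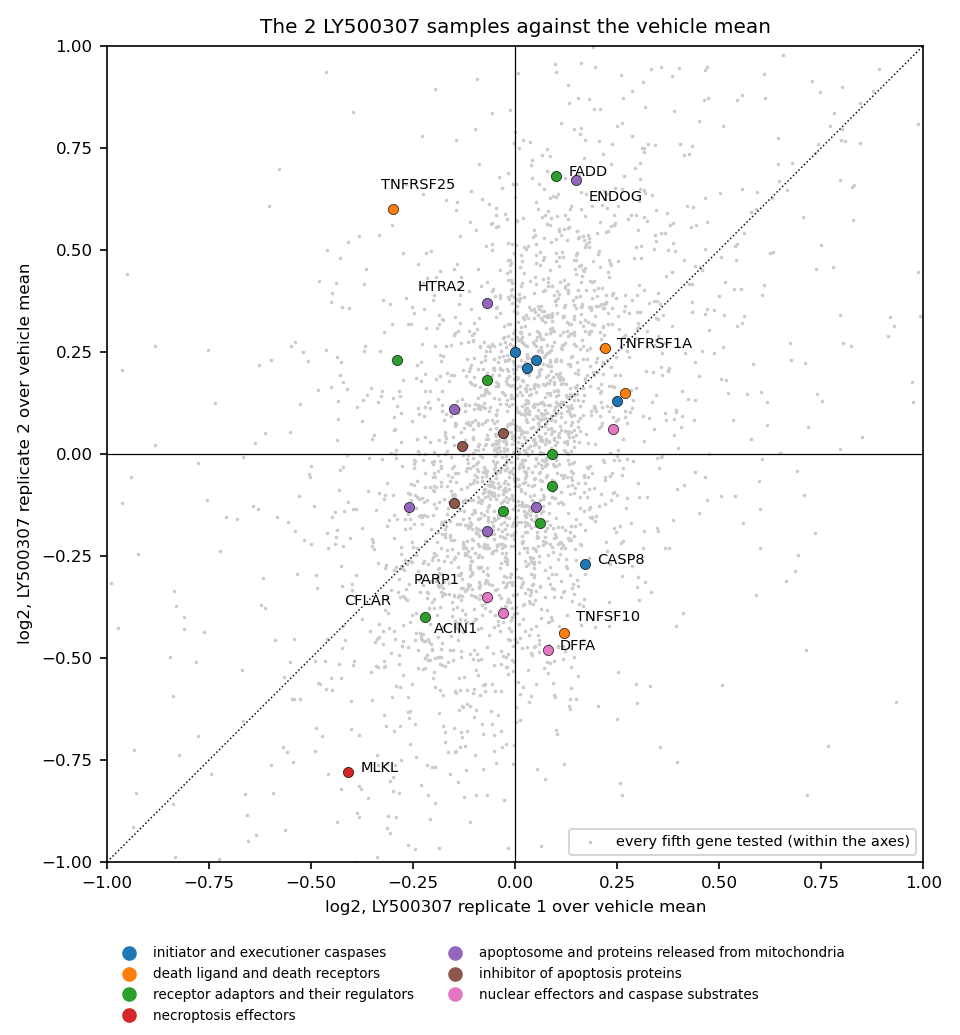
Log2 ratio of each LY500307 sample to the vehicle mean, replicate 1 on the horizontal and replicate 2 on the vertical axis. Coloured points are the 31 members by role, grey points an evenly spaced subset of all genes tested, and the dotted line marks equal values. TNFRSF1A (0.22 and 0.26) lies near the line, and FADD (0.10 and 0.68) and DFFA (0.08 and -0.48) lie far from it.

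With LY500307 replicate 1 left out, the log2 fold change was 0.68 for FADD and 0.67 for ENDOG. With LY500307 replicate 2 left out, it was 0.10 for FADD and 0.15 for ENDOG. Between these fits, in the same order, CASP6 went from 0.13 to 0.25, APAF1 from -0.13 to -0.26 and CYCS from 0.11 to -0.14. The lone treated sample is then assumed to vary like the vehicle pair. CFLAR was at -0.40 without replicate 1 and -0.22 without replicate 2, and TNFRSF1A was at 0.26 and 0.22. Both fits share the vehicle samples and reuse the data of the main fit, so they are not separate evidence.

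**Figure D4:**
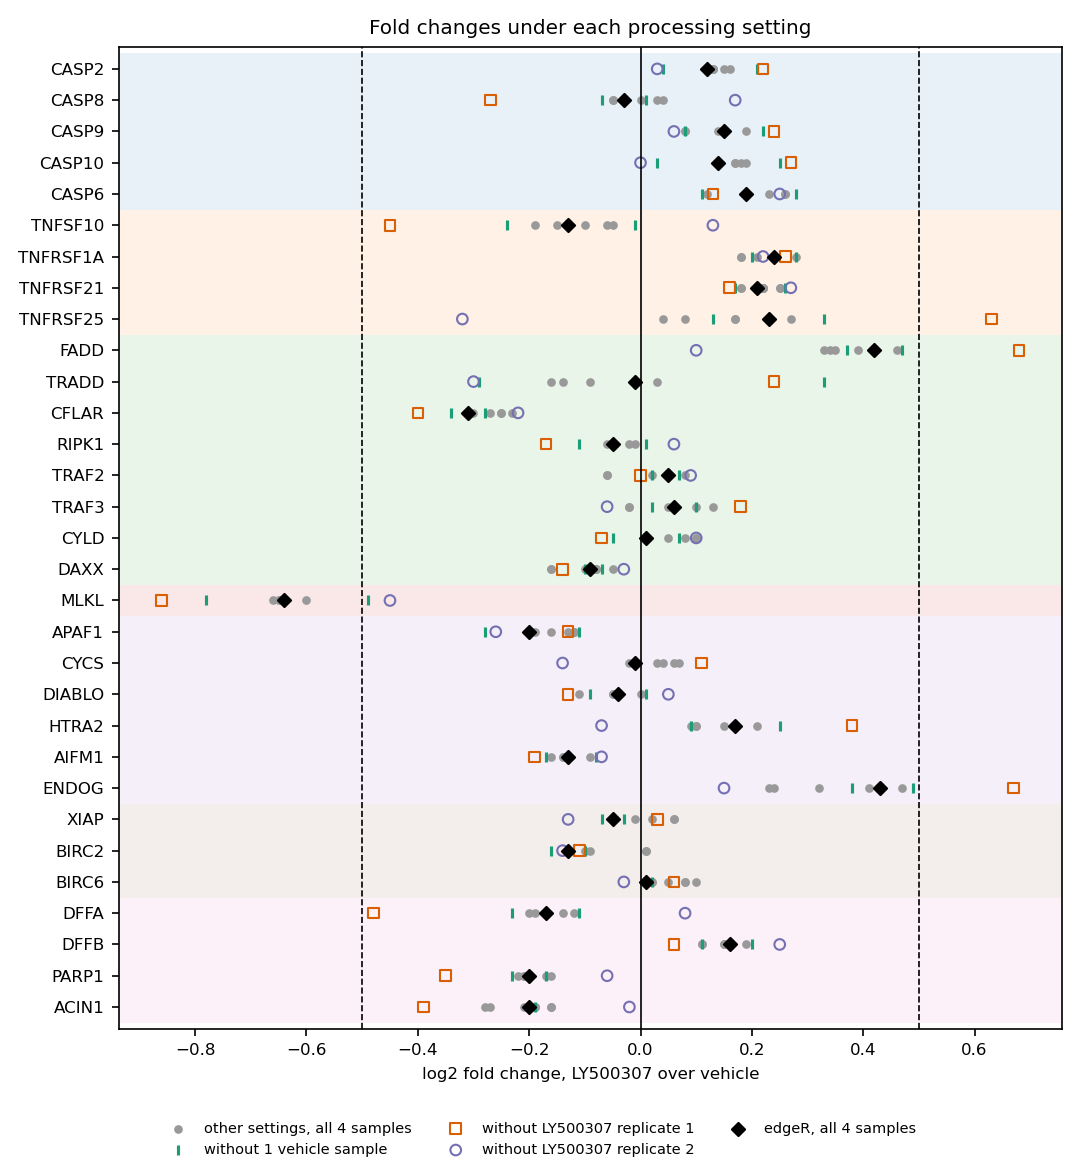
Log2 fold change of each member tested (horizontal axis) under every processing setting. Black diamonds are edgeR on all 4 samples, grey dots other settings on all samples, green bars fits without 1 vehicle sample, orange squares without LY500307 replicate 1 and purple circles without LY500307 replicate 2. For FADD the estimate moves from 0.68 to 0.10 between the last pair, and for TNFRSF1A from 0.26 to 0.22.

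A list of 62 other genes of the same pathways had 55 tested and 1 that met the criteria, again beside 4.62% of all genes tested. That gene was FAS, the death receptor for FAS ligand. It had 525 and 469 reads with vehicle and 805 and 914 reads with LY500307, or 17.5 and 16.5 CPM against 23.2 and 28.3 CPM. The log2 fold change was 0.60 (standard error 0.15, 95% interval 0.25 to 0.94, unadjusted p = 0.00421, adjusted p = 0.422, edgeR). Without LY500307 replicate 2 its log2 fold change was 0.45, under the 0.5 that the criteria ask. In this list, 6 genes that were higher and 2 that were lower had an unadjusted p below 0.05, 14.5% of those tested against 11.6% of all genes tested.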

How the data were processed

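Per the labels, libraries were made with a TruSeq kit for total RNA and sequenced as single-end reads, while the study's methods name a stranded TruSeq mRNA kit. The authors deposited 1 file of raw read counts per gene and sample. The submitters' processing notes name bcl2fastq, TopHat2 2.0.8b, HTSeq and hg19, and the strand setting of the counting is not given in the sources used here. Tally lines that name no gene, 50.0 to 54.4% of the summed counts with multiple alignments included, were left out of library sizes and tests.

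Counts were analysed with edgeR 4.0.16 in R 4.3.3 (TMM scaling, filterByExpr, quasi-likelihood test, no covariate) over 14473 genes, with Benjamini-Hochberg adjustment over all of them. The study's own tool, DESeq2 (1.42.0), was an alternative, as were other scalings, filters, GC and length corrections, a replicate block and leaving out each sample. The fit was tested on simulated data. Transcript length and GC content came from GENCODE v44lift37 (GRCh37), matched for 91.6% of symbols. The study names no pairing of samples, so the main fit held no block. Deviations of same-numbered samples correlated at -0.07, which with 2 samples per group cannot decide whether numbers pair samples. All 33 members were named, and of the other pathway genes those that met the criteria. The closing section names 7 more, chosen after their values were seen. The members and lists were chosen with earlier results of these data known. Some items are not reported here.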

Additional observations from a re-analysis of the deposited data

How the results depend on the processing

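Of 402 member log2 fold changes recomputed under alternatives, 374 stayed on their side of an unadjusted p of 0.05, 17 newly fell below it, 11 no longer lay below it, and 0 called values turned sign. In the main fit only CFLAR and TNFRSF1A lay below 0.05, so the 11 losses were all theirs. Most of the 374 were never called, and no such shares over all genes were computed. Without a call, 35 estimates in 15 members changed sign, among them CASP8, TRADD, CYCS and BIRC2. The count of members that met the criteria was 0 throughout, except that leaving out 1 sample gave 0 to 2. Members with an unadjusted p below 0.05 numbered 4 with all genes of at least 1 count (12.1% of members tested, 11.6% of all genes), 1 with the GC correction (3.23%, 9.76%), 0 with the length correction (0%, 10.5%) and 0 to 12 with 1 sample left out (0 to 38.7%, 5 to 40.3%). The cause was not tested, beyond the lone sample of an arm being assumed to vary like the other group. The members' median log2 fold change was 0.03 with library totals alone, 0.04 with the GC correction, 0.02 with the length correction and -0.01 to 0.03 with 1 sample left out.

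With the replicate number as a block, 717 genes met the criteria and 1 gene had an adjusted p below 0.05. An unadjusted p below 0.05 was found for 2 members (FADD and CFLAR), 6.45% of those tested against 11.2% of all genes. With the block and GC correction together, 0 members and 10.3% of all genes had an unadjusted p below 0.05, the members' median was 0.03 and 28 genes had an adjusted p below 0.05. The samples share only a number.

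Over all genes, 669 met the criteria, with 352 to 1987 when 1 sample was left out. Of these, 352 came without LY500307 replicate 2 and 1987 without LY500307 replicate 1. Genes with an adjusted p below 0.05 numbered 0 with edgeR, 16 with DESeq2 and 0 to 5002 with 1 sample left out, the highest without LY500307 replicate 1 and 590 without LY500307 replicate 2. Other pathway genes that met the criteria numbered 0 to 5 with 1 sample left out, and 0 without LY500307 replicate 2, where FAS fell below the fold set. RIPK3 and BIRC3 had too few reads to be tested.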

Other observations

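Within each sample, CASP8 can be set against CFLAR, its competitor at the receptor. The ratio of their CPM was 0.370 and 0.376 in the vehicle samples and 0.487 and 0.410 in the LY500307 samples, so it was higher in both LY500307 samples. CFLAR itself was lower in both, while CASP8 was above the vehicle samples in LY500307 replicate 1 and below them in replicate 2. The difference in the ratio was not tested, nor how often ratios of other gene pairs separate.

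Of the other pathway genes with an unadjusted p below 0.05 (edgeR), 7 beside FAS were named after their values were seen. TRAF4 (log2 fold change 0.43), an adaptor of the TRAF family, and RNF31 (0.37), the catalytic subunit of the linear ubiquitin ligase, were higher with LY500307. So were PGAM5 (0.36), a mitochondrial phosphatase, LMNA (0.31), which encodes lamins A and C, and GSN (0.41), which encodes gelsolin. TRAF5 (-0.36), another TRAF adaptor, and ROCK1 (-0.38), a kinase that caspases cleave, were lower. Without LY500307 replicate 2 the log2 fold change was 0.20 for TRAF4, 0.13 for PGAM5, 0.25 for GSN and -0.18 for ROCK1, and PGAM5 no longer had an unadjusted p below 0.05. Without LY500307 replicate 1, PGAM5 was at 0.56 and ROCK1 at -0.61. None of the 7 had an adjusted p below 0.05.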
